A study of Homo sapiens with 6 samples.

Results

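Ion channel genes are described here in A375 cells, an established human melanoma line, with and without overexpression of CYGB, the gene of the haem protein cytoglobin. Members were the rows of the deposited count table whose gene symbol belongs to a channel family, namely the potassium (KCN), voltage-gated calcium (CACN), voltage-gated sodium (SCN), acid-sensing (ASIC), pacemaker (HCN), chloride (CLCN), anoctamin (ANO), transient receptor potential (TRPC, TRPM and TRPV), glutamate receptor (GRI), GABA-A receptor (GABR), nicotinic receptor (CHRN) and ATP receptor (P2RX1 to P2RX6) families. Symbols with a hyphen were left out, which removed 1 antisense gene. The rule found 44 genes among 2778 features, all of them protein-coding in GENCODE release 29, where 247 protein-coding genes match the same symbols. The other channel genes were not in the table and were not analysed here.

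The design has 6 libraries, 3 of wildtype A375 cells (WT) and 3 of A375 cells overexpressing CYGB (CYGB-OE), all untreated. The labels do not give the construct, the promoter that drives it, an empty-vector control, or whether the CYGB-OE cells are 1 clone. Nothing in them ties a library to its own culture, and the p-values then cover only library-to-library spread, which may be technical. CYGB, the overexpressed gene, gave 33, 47 and 37 raw counts in WT, replicates 1 to 3 in order as everywhere below, and 22518, 20740 and 26267 in CYGB-OE. The table totals 1533260 to 2801576 counts per library, which is not the depth, because only features differing between the groups are in it. Before the groups were aligned, no log2 ratio of group means lay between -0.65 and 1.34. Placing the centre of this empty interval at 0 gives a smallest absolute log2 ratio of 0.995. That the selection was about 2-fold in both directions is thus an assumption. CYGB-OE replicate 1 stood apart from the other two. Over all tested features its median absolute log2 difference from replicates 2 and 3 was 0.456 and 0.461, against 0.211 between those 2 and 0.175 to 0.184 among the WT libraries, and over the tested channel genes these values were 0.786, 0.664, 0.322 and 0.120 to 0.191.

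Of 13 melanocyte and melanoma markers, 5 were in the table, and their summed normalized count was 57850 to 62400 in WT and 16780 to 17970 in CYGB-OE, most of it from CSPG4. DCT, too low to test, had raw counts of 2, 13 and 15 in WT and 0 in every CYGB-OE library. TMM scaling over the table moved the log2 ratio of CSPG4 from -1.88 to -0.69 and that of EDNRB from -1.5 to -0.31. TYRP1 moved from -2.53 to -1.36 (edgeR adjusted p = 0.117) and S100A1 from -1.11 to 0.08. The defining markers outside the table were not analysed here. Of 11 neuronal markers, 3 were in the table (NEFL, MAP2 and ELAVL4), with sums of 794 to 903 in WT and 2089 to 3201 in CYGB-OE. NEFL alone made up the higher sum, with a mean of 770 in WT and 2469 in CYGB-OE, while MAP2 fell from 61.1 to 27.7 (log2 ratio -1.15, and 0.04 under TMM scaling over the table) and ELAVL4, too low to test, averaged 12.3 and 2.38. Of the listed fibroblast, endothelial, immune and keratinocyte markers, 2 of 9, 2 of 7, 2 of 9 and 1 of 7 were in the table. Their sums were 1.10 to 3.95, 166 to 191, 130 to 172 and 13.8 to 20.6 in WT, and 38.4 to 193, 16.8 to 34.1, 229 to 341 and 51.8 to 68.1 in CYGB-OE. The immune markers moved in opposite directions, LYZ from 51.3 to 289 and ITGAM from 94.2 to 2.13. The part of these differences in the results below was not tested.

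Ion channels are membrane proteins that let chosen ions pass down their gradients. Potassium channels set the resting membrane potential, voltage-gated sodium and calcium channels carry depolarising currents, and calcium that enters through calcium channels, TRP channels and some ligand-gated receptors also acts as a second messenger. Melanoma cells are not electrically excitable in the way of neurons, but cells of this lineage derive from the neural crest and are known to express potassium, calcium and TRP channels.

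Of the 44 members, 36 passed the filter on low counts, and of these 10 rose and 26 fell when CYGB was overexpressed (edgeR's quasi-likelihood test, threshold 0.05 after Benjamini-Hochberg adjustment over all tested features). Of all tested features 28.3% were called higher and 71.5% lower, 99.8% in all, in a table that holds only features differing between the groups, and the split of the channel genes lay close to that of the table. Changes are given as log2 change, the log2 ratio of CYGB-OE over WT from the fit, with its standard error (SE), and levels as normalized counts, raw counts divided by a factor for library size. The median log2 change of the 36 was -1.59, against -1.29 over all tested features, and the median absolute value was 1.90 against 1.51. All 44 members had groups that did not overlap, as did 98.3% of all features. With edgeR's TMM scaling over the table, which raises log2 changes by a median of 1.19, the split was 12 higher and 9 lower, with a median of -0.31. Without CYGB-OE replicate 1 it was 10 higher and 28 lower of 38 tested. Adjusted over all annotated genes, 7 higher and 22 lower calls were kept, with 74% of all tested features called, and the calls lost were those of KCNE4, KCNK2, KCNK3, KCNK15, CACNG7, SCN4B and GRIN2D.

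**Figure D1:**
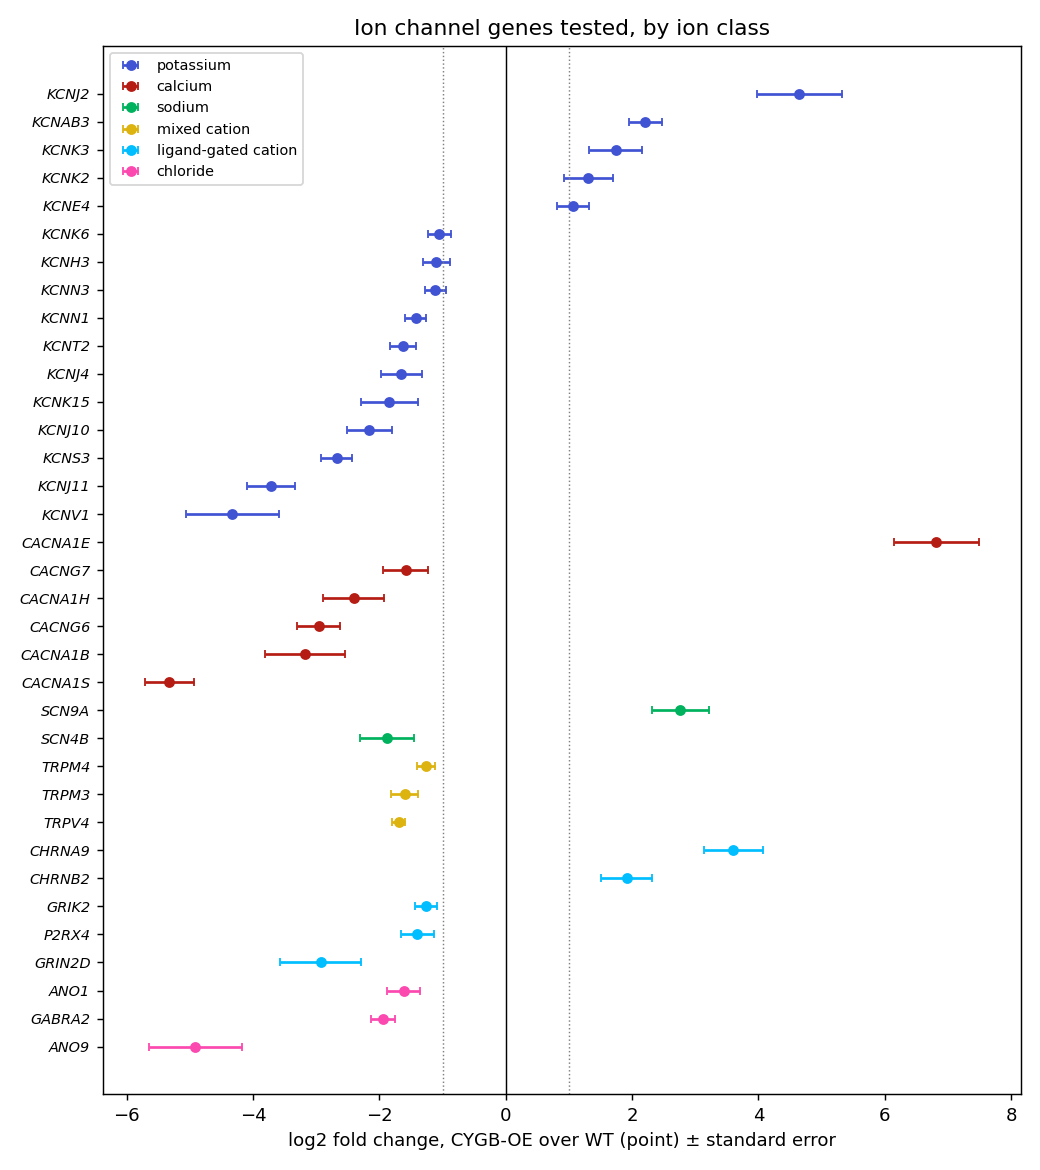
The x axis gives the log2 fold change of CYGB-OE over WT with its standard error (bars) for tested channel genes, grouped by ion class along the y axis, with dotted lines at a log2 fold change of 1 either way. CACNA1E, KCNJ2 and CHRNA9 lie farthest to the right at 6.82, 4.65 and 3.61, and CACNA1S, ANO9 and KCNV1 farthest to the left at -5.33, -4.92 and -4.33.

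RefSeq promoter windows were found for 31 of the 44 members, and the 250 bases before the start are shown for the 3 that rose most and the 3 that fell most among the tested members with a window (RefSeq starts, GRCh38.p14, 5′ to 3′). Capitals mark the GC box, GGGCGG, or its reverse complement.
CACNA1E, chr1:181483267-181483516, plus strand: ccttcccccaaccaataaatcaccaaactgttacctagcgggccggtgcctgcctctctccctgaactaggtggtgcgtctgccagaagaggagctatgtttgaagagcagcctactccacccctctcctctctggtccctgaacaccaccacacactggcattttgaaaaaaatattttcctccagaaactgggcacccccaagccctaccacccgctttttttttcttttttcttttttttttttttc
KCNJ2, chr17:70169282-70169531, plus strand: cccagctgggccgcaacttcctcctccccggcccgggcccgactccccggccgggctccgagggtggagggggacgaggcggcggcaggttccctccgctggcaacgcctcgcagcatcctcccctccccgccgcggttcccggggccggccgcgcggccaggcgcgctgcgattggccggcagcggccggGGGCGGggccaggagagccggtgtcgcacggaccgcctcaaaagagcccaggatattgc
CHRNA9, chr4:40335083-40335332, plus strand: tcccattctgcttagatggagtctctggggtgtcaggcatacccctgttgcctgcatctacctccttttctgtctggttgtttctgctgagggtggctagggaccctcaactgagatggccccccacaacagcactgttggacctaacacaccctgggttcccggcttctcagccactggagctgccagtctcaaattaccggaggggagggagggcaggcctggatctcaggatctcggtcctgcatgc
CACNA1S, chr1:201112427-201112676, minus strand: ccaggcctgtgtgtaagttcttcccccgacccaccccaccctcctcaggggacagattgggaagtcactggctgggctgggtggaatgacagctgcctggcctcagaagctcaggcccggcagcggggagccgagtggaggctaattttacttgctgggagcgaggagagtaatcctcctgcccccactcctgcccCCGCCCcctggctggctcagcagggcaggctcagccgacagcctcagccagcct
CACNA1B, chr9:137877532-137877781, plus strand: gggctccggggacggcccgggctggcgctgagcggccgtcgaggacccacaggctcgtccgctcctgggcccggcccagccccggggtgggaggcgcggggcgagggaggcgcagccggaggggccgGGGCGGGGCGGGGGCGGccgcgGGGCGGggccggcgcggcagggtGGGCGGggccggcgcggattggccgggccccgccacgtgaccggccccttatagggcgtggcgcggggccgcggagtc
CACNG6, chr19:53991387-53991636, plus strand: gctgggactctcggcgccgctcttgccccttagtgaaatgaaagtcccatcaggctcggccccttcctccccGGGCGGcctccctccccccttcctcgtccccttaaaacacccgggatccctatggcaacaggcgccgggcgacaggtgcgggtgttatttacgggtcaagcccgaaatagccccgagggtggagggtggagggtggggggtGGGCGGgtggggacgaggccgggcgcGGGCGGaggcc
The CACNA1E and CHRNA9 windows hold no GC box, those of KCNJ2 and CACNA1S hold 1 each, CACNG6 holds 3 and CACNA1B holds 5, some of them overlapping. The CACNA1E and KCNJ2 windows lie inside the GENCODE bounds of these genes given below, so they precede RefSeq starts downstream of the GENCODE gene start. Part of the CACNA1S window and the last bases of the CHRNA9 window also lie inside the bounds of these genes. The CACNG6 and CACNA1B windows end before the GENCODE gene start.

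Across all members with a window, a GC box on either strand was present in 3 of the 11 that were higher in CYGB-OE (27.3%) and in 17 of the 20 that were lower (85%). Among 35114 RefSeq windows of the same length the share was 42.6%, and among table features it was 51.9% of 385 higher and 61.9% of 1080 lower. Base composition moved with it: the median GC content was 58.8% in the higher and 67% in the lower members, against 61.2% and 64.8% over the table. Its part in the difference was not tested, and the split was noticed after the values were seen. Some members in these shares were too low to test. They are CHRNA10, GRIN3A, KCNJ16 and KCNT1, higher without a GC box, and CHRNE and KCNJ8, lower with a GC box. The directions also rest on the scaling: KCNN3 and KCNK6, lower with a GC box, turned positive under TMM scaling over the table. Other motifs were rare in these windows. AP-1 (TGANTCA) was in 2 of 31 members and 6.57% of all windows, the E-box CACGTG in 1 and 6.35%, the M-box CATGTG in 1 and 9.42%, the TATA box TATAAA in 1 and 10.7%, and the cAMP response element TGACGTCA in 0 and 1.65%. Both strands were searched, and no motif of this set contains another. A missing match says only that these letters are not in the window, and the starts used by A375 cells were not measured here.

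Potassium channel genes were the largest class, with 20 members in the table of 97 annotated. Of 16 tested, 5 rose and 11 fell, and the median of their log2 changes was -1.27, against -1.29 over all tested features. TMM scaling over the table gave 5 higher and 3 lower calls, the lower ones for KCNJ11, KCNS3 and KCNV1. KCNN3, KCNH3 and KCNK6 turned positive.

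KCNJ2 (ENSG00000123700, chr17:70168673-70180048, plus strand) encodes Kir2.1, an inward rectifier that holds the membrane near the potassium equilibrium potential. Its normalized counts were 8.80, 18.2 and 3.19 in WT and 108, 315 and 384 in CYGB-OE. CYGB-OE replicate 1 was the lowest of its group, and the groups did not overlap. The mean rose from 10.1 ± 7.57 to 269 ± 144 (SD, n = 3 each; log2 change 4.65, SE 0.67; edgeR adjusted p = 0.000493), and the log2 change was 5.47 without WT replicate 2 and 4.26 without WT replicate 3.

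Other inward rectifiers fell. KCNJ11 (ENSG00000187486, chr11:17385859-17389331, minus strand) encodes Kir6.2, the pore of the ATP-sensitive potassium channel, and had 75.9, 64.0 and 67.0 normalized counts in WT and 2.13, 7.82 and 5.45 in CYGB-OE, a log2 change of -3.72 (SE 0.38; edgeR adjusted p = 3.09e-05). KCNJ8, which encodes Kir6.1 of the same channel type, was too low to test, with raw counts of 6, 5 and 4 in WT and 0 in each CYGB-OE library, at least 4.71-fold lower (floor of 3 counts over the group; 2.94-fold without CYGB-OE replicate 3). ABCC9, the gene of the regulatory subunit SUR2 that pairs with Kir6.1, lies 21.8 kb from KCNJ8 and had 5, 5 and 3 counts in WT and 0 in each CYGB-OE library; it is no member and was named after its values were seen. KCNJ10 (Kir4.1, known from glia) and KCNJ4 (Kir2.3) had log2 changes of -2.16 and -1.65. Under TMM scaling these were -0.98 and -0.47 (edgeR adjusted p = 0.0536 and 0.282), and both calls were lost, while that of KCNJ11 was kept. KCNJ16 (Kir5.1, a partner of Kir4.1) went the other way at low level, with raw counts of 0, 0 and 1 in WT and 5, 7 and 17 in CYGB-OE, a 30.8-fold ratio (95% interval 5.11 to 1260, counting error only). Without WT replicate 3 the WT count was 0 and the ratio at least 7.17, and it was 18.3 without WT replicate 2 and 20.4 without CYGB-OE replicate 3.

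KCNS3 (ENSG00000170745, chr2:17877847-18361616, plus strand) encodes Kv9.3, a subunit that makes no channel alone and modifies Kv2 channels. In WT it was the most abundant potassium channel gene of the table, with normalized counts of 847, 864 and 903 in WT and 198, 114 and 98.15 in CYGB-OE. Its mean fell from 871 ± 29 to 137 ± 53.9 (log2 change -2.67, SE 0.25; edgeR adjusted p = 2.31e-05). KCNV1 (ENSG00000164794, chr8:109963645-109975847, minus strand), which encodes another modifier of Kv2 channels, Kv8.1, was low in both groups, with raw counts of 11, 19 and 20 in WT and 0, 2 and 0 in CYGB-OE. WT exceeded CYGB-OE 23.5-fold (95% interval 6.18 to 200), 14.7-fold without CYGB-OE replicate 3, and at least 10.9-fold without CYGB-OE replicate 2, which held both counts (edgeR adjusted p = 0.000522 with all libraries). Thus both silent Kv subunits of the table fell, as did 71.5% of all tested features. KCNH3 (Kv12.2), a voltage-gated pore subunit, had a log2 change of -1.10, which turned to 0.09 under TMM scaling.

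Both tested accessory subunits of potassium channels rose, as did 28.3% of all tested features. KCNAB3, which encodes a cytoplasmic beta subunit of Kv1 channels, went from 31.6 ± 5.54 to 148 ± 37.7 normalized counts (log2 change 2.21), and KCNE4, whose product inhibits several Kv channels including Kv7.1, from 26.0 ± 2.91 to 54.3 ± 6.43 (1.07 on the log2 scale). KCNQ1, the gene of Kv7.1 itself, was too low to test, at 10, 14 and 5 raw counts in WT and 2, 0 and 2 in CYGB-OE.

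Among 2-pore domain channels, which carry background potassium current, KCNK3 (TASK-1) and KCNK2 (TREK-1) rose with log2 changes of 1.74 and 1.30, while KCNK15 (TASK-5) and KCNK6 (TWIK-2) fell with -1.85 and -1.05. Under TMM scaling the KCNK6 value turned to 0.14, and KCNK15 lost its call (-0.67, edgeR adjusted p = 0.289). KCNK15 shares 19.5% of its exon bases with RIMS4 on the opposite strand and 2.19% with KCNK15-AS1, which was lower as well (log2 change -2.02), so its count is uncertain while the strand setting of the counting is unknown. Antisense genes also share 12.6% of the exon bases of KCNJ4, 10.8% of those of KCNJ8 and 10.7% of those of ANO1. KCNAB3 shares 5.5% with AC104581.2 on the same strand. Both calcium-activated SK channel genes of the table fell: KCNN1 (SK1) from 269 ± 8.70 to 100.3 ± 14.3 normalized counts (log2 change -1.42) and KCNN3 (SK3) from 386 ± 34.9 to 178 ± 27.6 (-1.12, which turned to 0.07 under TMM scaling). Neither kept its call under TMM scaling, where KCNN1 was at -0.23 (edgeR adjusted p = 0.311). The pair of sodium-activated channel genes differed in direction. KCNT2 (Slick) fell from 491 ± 26.7 to 159 ± 44.1 (log2 change -1.63). Its call was lost under TMM scaling (-0.44, edgeR adjusted p = 0.12). KCNT1 (Slack), too low to test, was at 0 in each WT library and had raw counts of 2, 9 and 8 in CYGB-OE, at least 6.73-fold higher (3.99-fold without WT replicate 2).

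Voltage-gated calcium channel genes numbered 6 of 26 annotated, all tested, and 1 rose and 5 fell. Of all tested features 71.5% were lower. The median log2 change of the 6 was -2.68, against -1.29 over all tested features. TMM scaling over the table gave 1 higher and 3 lower calls and no change of sign; CACNG7 and CACNA1H lost their calls.

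CACNA1E (ENSG00000198216, chr1:181317690-181808084, plus strand) encodes the pore of Cav2.3, the R-type channel of neurons and endocrine cells. Normalized counts were 3.30, 1.58 and 2.13 in WT, from 3, 2 and 2 raw counts, and 109, 375.2 and 320 in CYGB-OE. CYGB-OE replicate 1 was again the lowest of its group and the groups lay far apart. This was the largest rise among the members (log2 change 6.82, SE 0.67; edgeR adjusted p = 5.83e-05; between 6.5 and 7.19 with any 1 library left out).

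CACNA1S (ENSG00000081248, chr1:201039512-201112566, minus strand) encodes the pore of Cav1.1, the voltage sensor of skeletal muscle. It had normalized counts of 86.9, 77.5 and 97.8 in WT and 3.20, 2.23 and 0.909 in CYGB-OE, a log2 change of -5.33 (SE 0.39; edgeR adjusted p = 7.15e-06). CACNA1B (ENSG00000148408, chr9:137877789-138124624, plus strand) encodes the pore of Cav2.2, the N-type channel of synapses, and had 61.6, 48.2 and 52.1 in WT and 14.9, 1.12 and 1.82 in CYGB-OE (log2 change -3.18, SE 0.63; edgeR adjusted p = 0.00137). Most of the CACNA1B counts in CYGB-OE were in replicate 1, and without it WT exceeded CYGB-OE 35.4-fold (95% interval 11.9 to 174; 3 counts in CYGB-OE). The CACNA1B log2 change lay between -5.05 and -2.71 with any 1 library left out. CACNA1H, the pore of the T-type channel Cav3.2, was low throughout, with 13.3 ± 1.84 in WT and 2.45 ± 1.79 in CYGB-OE (log2 change -2.41, and -2.09 without CYGB-OE replicate 1; an 8.94-fold ratio, 95% interval 2.85 to 45.1, without CYGB-OE replicate 2). So of the 4 pore genes in the table, from the L, N, R and T types, the R-type gene rose and the others fell.

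The gamma subunits CACNG6 and CACNG7 both fell. CACNG6 went from 136 ± 3.72 to 17.3 ± 8.85 normalized counts (log2 change -2.96) and CACNG7, whose product also modulates AMPA receptors, from 42.3 ± 7.44 to 14.2 ± 6.46 (-1.58). No alpha-2-delta or beta subunit gene was among the members.

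Sodium channel genes numbered 3 of 19 annotated. SCN9A (ENSG00000169432, chr2:166195185-166376001, minus strand), which encodes the pore of Nav1.7, known from pain-sensing neurons, had normalized counts of 3.30, 2.37 and 8.50 in WT and 23.5, 34.6 and 36.4 in CYGB-OE. All CYGB-OE libraries were above all WT libraries at a low level (log2 change 2.76, SE 0.45; edgeR adjusted p = 0.000409). The log2 change was 3.45 without WT replicate 3 and 2.385 without WT replicate 2. SCN3A, the gene of Nav1.3, was too low to test and had 2, 4 and 4 raw counts in WT and 20, 9 and 13 in CYGB-OE. SCN4B (ENSG00000177098, chr11:118133377-118152888, minus strand), a beta subunit gene, had normalized counts of 18.7, 25.3 and 20.2 in WT and 2.13, 8.93 and 6.36 in CYGB-OE, a log2 change of -1.88 (SE 0.42; edgeR adjusted p = 0.00244, or 0.0581 over all annotated genes). Under TMM scaling over the table the calls were 2 higher, SCN9A and SCN3A, and 0 lower. Antisense transcripts share 8.17% of the exon bases of SCN9A and 9.91% of those of SCN3A.

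TRP channel genes numbered 3, all tested, and all 3 fell, as did 71.5% of all tested features. TMM scaling over the table changed no sign, and the calls of TRPM3 and TRPM4 were lost. TRPV4 (ENSG00000111199, chr12:109783085-109833401, minus strand) encodes a calcium-permeable channel opened by swelling and warmth. It was the most abundant member, with normalized counts of 3047, 3079 and 3069 in WT and 1057, 918 and 865 in CYGB-OE. The WT libraries agreed closely and the CYGB-OE libraries lay together far below them (log2 change -1.70, SE 0.11; edgeR adjusted p = 4.64e-06). TRPM4, a calcium-activated channel for monovalent cations, fell from 832 ± 43.7 to 348 ± 54.4 (log2 change -1.26, and -0.07 under TMM scaling). TRPM3 (ENSG00000083067, chr9:70529063-71446904, minus strand), a heat- and neurosteroid-gated channel of the same subfamily, had 86.9, 87.7 and 94.6 in WT and 26.7, 27.9 and 33.6 in CYGB-OE (log2 change -1.60).

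Ligand-gated cation channel genes numbered 8 of 41 annotated. Of 5 tested, 2 nicotinic receptor genes rose, and 2 glutamate receptor genes and P2RX4 fell; under TMM scaling the members passing the filter gave 3 higher and 0 lower calls.

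CHRNA9 (ENSG00000174343, chr4:40335329-40355217, plus strand) encodes the alpha-9 nicotinic acetylcholine receptor subunit, known from cochlear hair cells. Normalized counts were 38.5, 46.6 and 35.1 in WT and 842, 330.5 and 306 in CYGB-OE. CYGB-OE replicate 1 was the highest of its group here, the opposite of its place for CACNA1E and KCNJ2. The mean rose from 40.1 ± 5.94 to 493 ± 302 (log2 change 3.61, SE 0.46; edgeR adjusted p = 0.000272; 2.97 without CYGB-OE replicate 1). CHRNB2 (ENSG00000160716, chr1:154567781-154580026, plus strand), the beta-2 subunit of neuronal receptors, had 7.70, 10.3 and 7.44 in WT and 49.1, 21.2 and 28.2 in CYGB-OE (log2 change 1.92, SE 0.40; edgeR adjusted p = 0.00161). CHRNA10, whose product assembles with alpha-9, was too low to test, with raw counts of 1, 9 and 1 in WT and 18, 8 and 22 in CYGB-OE. It shares 4.92% of its exon bases with NUP98 on the same strand. Its normalized means were 3.09 ± 3.48 and 16.0 ± 6.17, and most of the WT counts were in replicate 2, without which the ratio was 15.1-fold (95% interval 3.97 to 129). CHRNE, the epsilon subunit of the adult muscle receptor, had 28, 8 and 14 raw counts in WT and 4, 0 and 2 in CYGB-OE. Its normalized means were 17.3 ± 12.4 and 2.03 ± 2.14, and without CYGB-OE replicate 1 the ratio was 16-fold (95% interval 4.21 to 136), but 40.9% of its exon bases are shared with C17orf107 on the opposite strand, so its count is uncertain.

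GRIK2 (ENSG00000164418, chr6:101181257-102070083, plus strand), the kainate receptor subunit GluK2, was the most abundant of the class in WT, with normalized counts of 917, 940 and 984 in WT and 509, 316 and 359.9 in CYGB-OE. All CYGB-OE libraries were below all WT libraries (log2 change -1.26, SE 0.17; edgeR adjusted p = 0.000163, and -0.07 with an adjusted p of 0.791 under TMM scaling). GRIN2D (ENSG00000105464, chr19:48394875-48444931, plus strand), an NMDA receptor subunit, had 13.2, 12.7 and 15.9 in WT and 0, 4.47 and 0.909 in CYGB-OE (log2 change -2.93, SE 0.65; edgeR adjusted p = 0.00213), and without CYGB-OE replicate 2 the group held 1 count, a 28.1-fold ratio (95% interval 4.79 to 1140). The GRIN2D log2 change lay between -4.52 and -2.40 with any 1 library left out. GRIN3A, another NMDA receptor subunit, had 0 counts in WT and 5, 4 and 8 in CYGB-OE, at least 6.02-fold higher (3.57-fold without WT replicate 2). P2RX4, an ATP-gated channel of plasma membrane and lysosomes, fell from 134 ± 9.19 to 50.9 ± 18.8 (log2 change -1.40).

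Chloride channel and related genes numbered 3 of 38 annotated, and all 3 fell, as did 71.5% of all tested features. TMM scaling over the table left 2 lower calls, without that of ANO1, and changed no sign. ANO1 (ENSG00000131620, chr11:70078302-70189528, plus strand), the calcium-activated chloride channel, had normalized counts of 619, 656 and 629 in WT and 299.7, 189.8 and 135 in CYGB-OE (log2 change -1.61, SE 0.26; edgeR adjusted p = 0.000453). GABRA2 (ENSG00000151834, chr4:46248427-46475230, minus strand), the alpha-2 subunit of the GABA-A receptor, had raw counts of 341, 425 and 346 in WT and 74, 73 and 131 in CYGB-OE, and its normalized mean fell from 359.5 ± 20.8 to 93.2 ± 22.5 (log2 change -1.94, SE 0.19; edgeR adjusted p = 2.89e-05). ANO9 (ENSG00000185101, chr11:417933-442011, minus strand), an anoctamin described mainly as a lipid scramblase, had 144, 163 and 170.1 in WT and 14.9, 0 and 0.909 in CYGB-OE. Its log2 change was -4.92 (SE 0.74; edgeR adjusted p = 0.000554), and 14 of its 15 CYGB-OE counts were in replicate 1. Without that library WT exceeded CYGB-OE 318-fold (95% interval 56.9 to 12600). Without CYGB-OE replicate 3 the log2 change of ANO9 was -4.365.

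**Figure D2:**
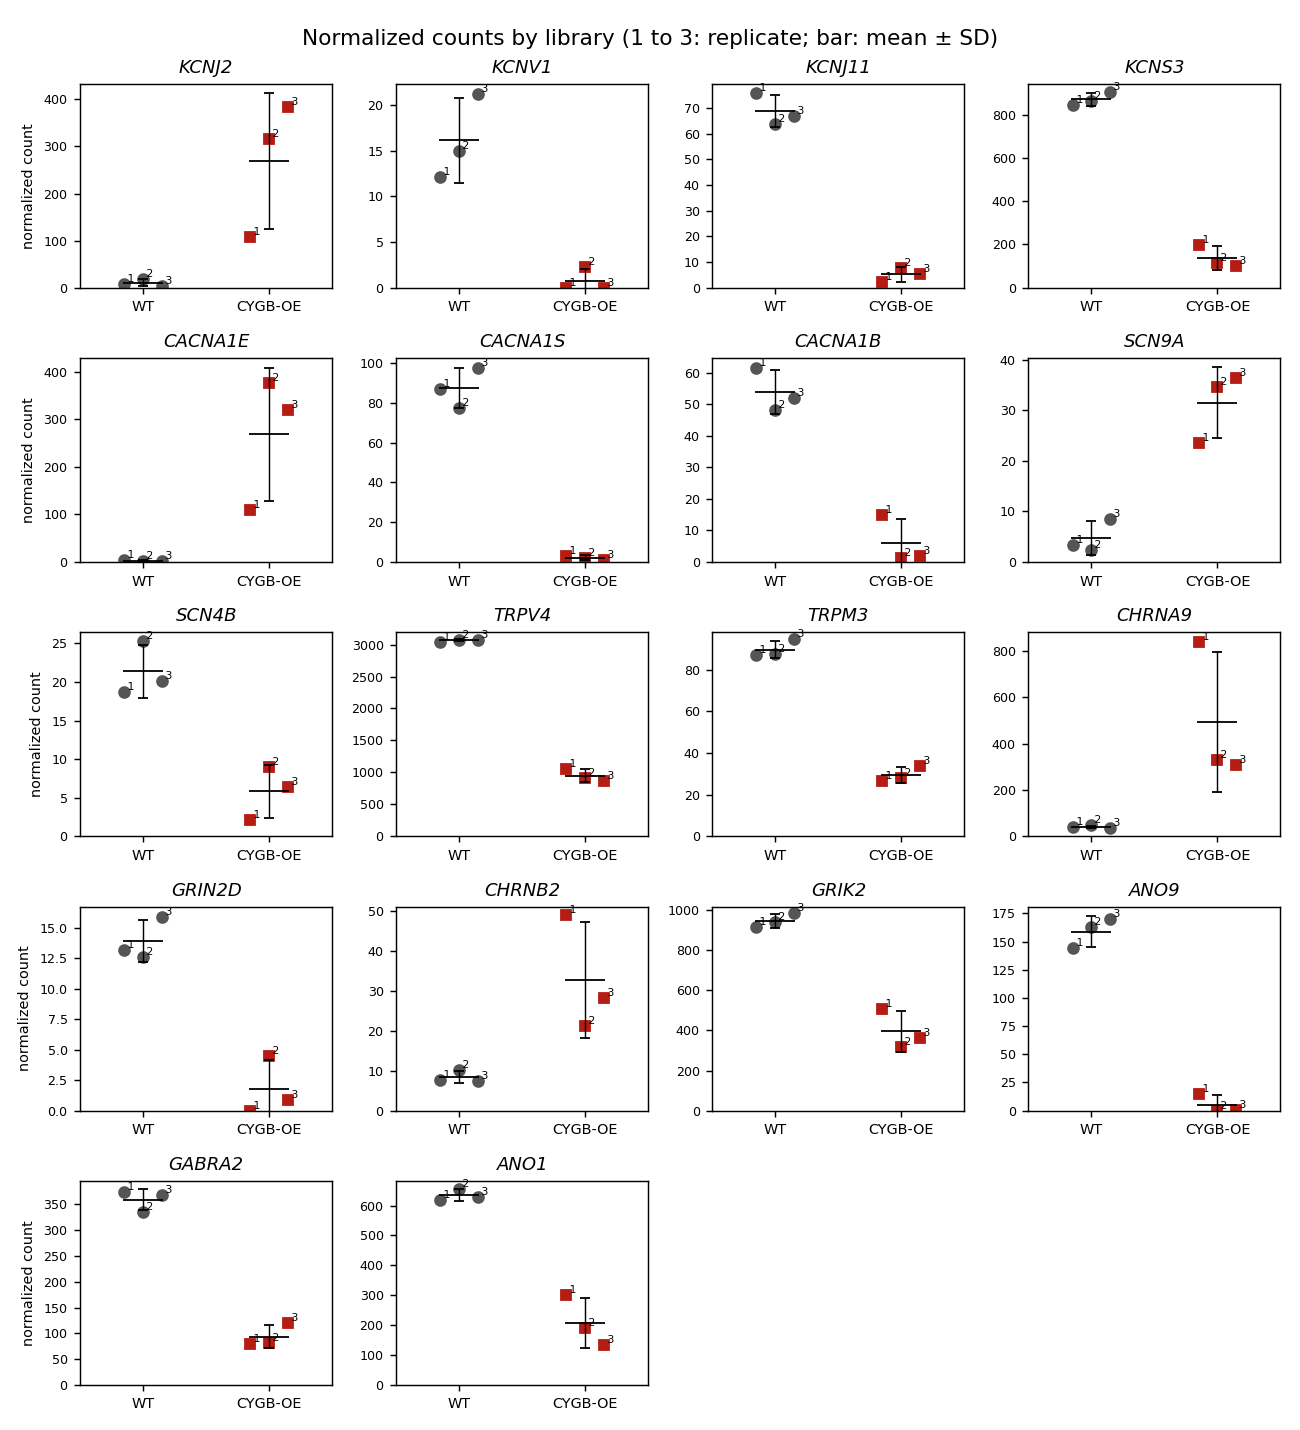
Each panel shows the normalized count (y axis, from 0) of 1 channel gene in the 3 WT libraries (circles) and the 3 CYGB-OE libraries (squares), numbered by replicate, with the mean and SD as bars. The genes are those with values in every library given in the text by ion class, and in every panel the groups do not overlap; TRPV4 lies near 3065 in WT and 947 in CYGB-OE.

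The abundance order of the members changed between the groups. Levels of different genes were compared as mean normalized count per kilobase of annotated exon. In WT the highest of the 36 tested members were TRPV4 (815 per kb), KCNS3 (278), TRPM4 (126), GRIK2 (125) and ANO1 (105). TRPM4 and GRIK2 differed by less than the spread between libraries. In CYGB-OE, TRPV4 was still first (252 per kb), followed by CHRNA9 (156), TRPM4 (52.6), GRIK2 (52.1) and KCNJ2 (48.2), and the last 3 differed by less than the spread between libraries. CHRNA9 moved from place 19 to place 2, KCNJ2 from 31 to 5, and CACNA1E from 36, the last, to 13 (0.128 to 14.7 per kb). CACNA1S moved from place 18 to 34 and ANO9 from 13 to 30.

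**Figure D3:**
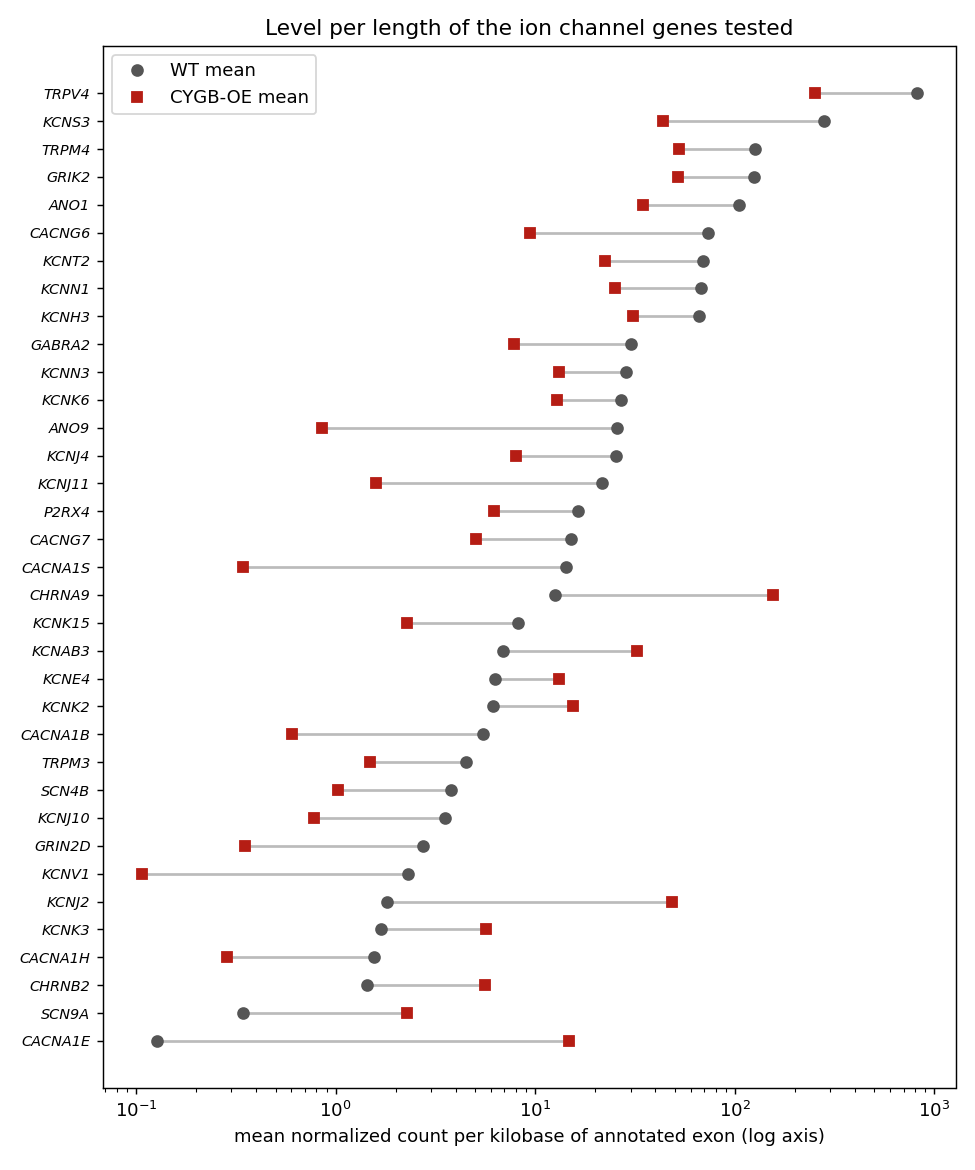
The x axis, logarithmic, gives the mean normalized count per kilobase of annotated exon in WT (circles) and CYGB-OE (squares) for tested channel genes, ordered along the y axis by the WT level. TRPV4 is highest in both groups (815 and 252 per kb), while CACNA1E is lowest in WT at 0.128 per kb.

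CYGB-OE replicate 1 differed from replicates 2 and 3 in both directions. On the log2(normalized count + 1) scale it was above their mean by over 1 for 3 of the 36 tested members and below by over 1 for 6, which is 25% of the members against 17.3% of all tested features. It was highest for ANO9 (3.53 above), CACNA1B (2.71) and CHRNA9 (1.40), and lowest for GRIN2D (1.69 below), KCNJ2 (1.68 below) and CACNA1E (1.66 below); the GRIN2D, ANO9 and CACNA1B values rest on few counts. In 12 of the 36 members (33.3%) replicate 1 lay beyond the other two on the side of WT, against 34.2% of all tested features. CYGB itself was alike in the 3 libraries, with normalized counts of 24020, 23160 and 23870.

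**Figure D4:**
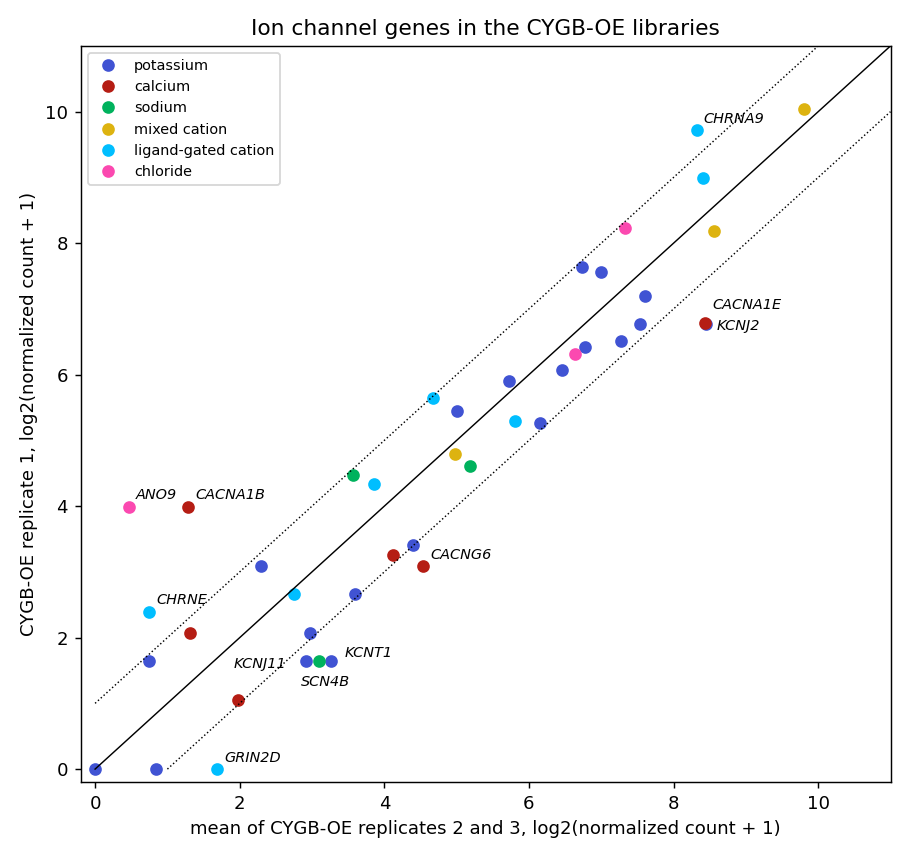
Each point is 1 channel gene, with the mean of CYGB-OE replicates 2 and 3 on the x axis and CYGB-OE replicate 1 on the y axis, both as log2(normalized count + 1), coloured by ion class; the solid line marks equal values and the dotted lines a difference of 1. ANO9, CACNA1B, CHRNA9 and CHRNE lie above the dotted band, and CACNA1E, KCNJ2, KCNJ11, GRIN2D, CACNG6, SCN4B and KCNT1 below it.

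Several members are neighbours in the genome. KCNJ16 and KCNJ2 lie 33.1 kb apart on chromosome 17 and were both higher, SCN3A and SCN9A lie 991 kb apart on chromosome 2 and were both higher, and CACNG7 and CACNG6 lie 48.3 kb apart on chromosome 19 and were both lower. P2RX4 lies 21.8 kb from P2RX7, an ATP-gated channel gene outside the symbol rule, which fell from 426 ± 44.3 to 35.1 ± 6.51 (log2 change -3.59). Of 6 pairs of members within 1000 kb, 4 had the same direction (66.7%), and the share was 65.4% among all 4624 pairs of annotated table features within that distance, close to the share of the members. The pairs CHRNB2 with KCNN3 and KCNQ1 with CHRNA10 differed in direction, and GRIN2D with TRPM4 did not. KCNN3 turned positive under TMM scaling, and KCNQ1, CHRNA10, KCNJ16 and SCN3A were too low to test.

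Genes that work with these channels were read from lists made for this purpose. Of 30 genes of calcium entry, release and extrusion outside the families above, 4 were in the table; ATP2B1, a plasma membrane calcium pump, rose (log2 change 1.06), and PIEZO2, a mechanically gated channel, ORAI3, a store-operated channel, and ATP2A3, a reticulum calcium pump, fell (-1.98, -1.71 and -1.31). Under TMM scaling over the table PIEZO2 (-0.80, edgeR adjusted p = 0.196) and ATP2A3 (-0.12, edgeR adjusted p = 0.808) lost their calls, as they did with adjustment over all annotated genes (0.0655 and 0.111). Of 19 regulators of voltage-gated calcium channels, 6 were in the table, and 5 of them fell. REM1, a small GTPase that inhibits these channels, went from 60.5 ± 12.4 to 0.356 ± 0.616 normalized counts, a single count in CYGB-OE, and CAMK2A and RIMS2 had log2 changes of -4.03 and -1.89. TMM scaling kept the calls of 2 of these 5, REM1 and CAMK2A, and STAC turned to 0.06. RIMS2 lost its call (-0.7, edgeR adjusted p = 0.297), as it did with adjustment over all annotated genes (0.123).

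Of 59 channel genes outside the symbol rule, the table held 6, and 2 rose and 4 fell, led by P2RX7, by TRPA1, an irritant-sensing channel (log2 change 3.28), and by CLIC3 (-2.68); under TMM scaling 2 were higher and 1 lower. Of 36 auxiliary proteins, 4 were in the table and all 4 fell, as did 71.5% of all tested features. They were NETO1, which binds kainate receptors (log2 change -3.22), DLG4, the synaptic scaffold PSD-95 (-1.37), UNC80 (-1.27) and FGF12 (-1.03). FGF12 turned to 0.17 under TMM scaling, where only NETO1 kept its call. GJA5, a connexin, was the only tested gene of the 3 found among 27 gap junction and aquaporin genes (-1.48, and -0.29 with an adjusted p of 0.612 under TMM scaling). RCAN2, a calcineurin regulator, was the only one of 20 calcineurin, NFAT and calmodulin kinase genes in the table and rose (2.33). Its normalized counts were 18.7, 7.11 and 13.8 in WT and 21.3, 88.2 and 85.4 in CYGB-OE, so replicate 1 lay close to WT. The RCAN2 call was kept under TMM scaling (3.52) and lost with adjustment over all annotated genes (edgeR adjusted p = 0.106). None of 16 sodium pump and FXYD genes was in the table, and they were not analysed here.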

How the data were processed

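Poly-A RNA of A375 cells was sequenced, per the labels' protocols, which name both a directional and a non-directional library type. Reads were handled with Trimmomatic 0.36, STAR 2.5.2b, featureCounts and Subread 1.5.2 on GRCh38, per the submitters' processing notes. The deposited values are raw counts per feature, with the annotation, strand setting and selection rule not given in the sources used here. Of 2778 features, 163 are unnamed loci holding 1.25% to 1.64% of the counts, and 2611 identifiers were found in GENCODE 29, whose coordinates and merged exon lengths were used.

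The test was the two-sided quasi-likelihood F test of edgeR 4.0.16 in R 4.3.3 on all 6 libraries, with group as the only term, filterByExpr (minimum count 10), robust fitting and Benjamini-Hochberg adjustment over the 2465 features tested. Because nearly every feature differs, TMM was applied inside each group only, and the groups were aligned by placing the centre of the empty interval of log2 ratios (1.99 wide) at 0, which assumes selection at the same fold in both directions. Features entered the table for differing between these libraries, so a call is not independent evidence. Ratios with 1 to 3 counts in a group have exact 95% intervals, which like the floor of 3 counts cover counting error only.

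Members and gene lists were chosen with earlier results of these data known. Values in every library are given for the 3 tested members of each ion class with the largest absolute log2 change and the most abundant one, and for low members, and each list is represented by its 3 largest changes. Alternatives were TMM over the table, DESeq2 1.42.0 with its own and with the main size factors, no filter, the replicate number as a block, each library left out, and adjustment over 58780 annotated genes. Results for some genes are not reported here.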

Additional observations from a re-analysis of the deposited data

How the results depend on the processing

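The level between the groups was the choice that mattered most. Against the main scaling, TMM over the table raised log2 fold changes by a median of 1.19 and DESeq2's own size factors by 1.21. Over the table, lower calls went from 1762 to 487 and 503 under these, with higher calls at 714 and 813 against 697; for channel genes, lower calls went from 26 to 9 and 9, and higher calls from 10 to 12 and 15. Of the 36 tested members, 14 lost their call with the sign kept under each, and the signs of 3 reversed: KCNH3 (log2 change 0.092 and 0.104), KCNK6 (0.143 and 0.157) and KCNN3 (0.075 and 0.088). DESeq2 with the main size factors and edgeR with no filter each called 15 channel genes higher and 29 lower, and each of the 36 kept its call. Leaving out 1 library gave 10 to 12 higher and 26 to 28 lower channel genes and 695 to 744 higher and 1777 to 1844 lower features; no tested member lost its call or changed sign. With the replicate number as a block, 10 channel genes were higher and 26 lower, as without it. The labels give a replicate number but state no pairing. Deviations of same-numbered libraries from their group means had correlations of -0.01, -0.07 and 0.01 for replicates 1 to 3. With 3 libraries per group these values cannot exclude a shared culture or batch. Members near 10 counts per library are limited by counting error.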
